A study of Mus musculus with 38 samples.

Results

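The response of reprogramming mouse cells to BMP4 at day 5 was read from 1 bulk RNA-seq library with BMP4 and 1 without. The cells were E13.5 mouse embryonic fibroblasts (MEFs) that had received JGES, the 4 factors *Jdp2*, *Glis1*, *Esrrb* and *Sall4*, by retrovirus for 2 days. Both cultures were kept in iCD3, a reprogramming medium that holds the GSK3 inhibitor CHIR99021, the DOT1L inhibitor SGC0946, an LSD1 inhibitor (LSD1-HCL in the labels), the ROCK inhibitor Y27632, the growth factors bFGF and mLIF, TV and vitamin C, and the BMP4+ culture also received BMP4 at 10 ng/ml. The study's MEFs carry an *Oct4*-GFP reporter, and whether cells were sorted before bulk sequencing is not given in the sources used here. All genes of the deposited table were compared except short RNAs such as microRNAs and small nucleolar RNAs, which left 34534 of 35976 genes. The series also covers the same cultures at other days, single cells of day 7 and cells with SALL4 alone. Because each condition had 1 library, no test was possible, no p-value is given, and a difference between the libraries has no replicate check.

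BMP4 is a secreted ligand of the TGF-beta superfamily. It binds receptor kinases that phosphorylate SMAD1, SMAD5 and SMAD9, and these enter the nucleus with SMAD4 and switch on *Id* genes, *Msx* genes and the inhibitory *Smad6* and *Smad7*, which limit the signal in turn. In the early embryo BMP signals help to separate extra-embryonic from epiblast fates, and in mesenchyme they drive bone and cartilage. JGES factors can take fibroblasts to naive pluripotency, the state of the inner cell mass that is marked by *Pou5f1* (OCT4), *Sox2* and *Nanog*, whereas the primitive endoderm (PrE) is the neighbouring extra-embryonic lineage, marked by *Gata4*, *Gata6* and *Sox17*.

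Levels are in FPKM, fragments scaled to transcript length and to the mapped fragments of the library, and differences are in log2(FPKM+1), with BMP4 minus without. Where 2 levels of a gene are given together, the first is without BMP4 and the second with it. The addition of 1 makes the difference of a low gene smaller than its ratio. A gene was counted as higher or lower when this difference was at least 1, called 2-fold below, among the 14502 genes with at least 1 FPKM in either library. By this rule 1211 genes were higher with BMP4 and 1819 were lower, which is 8.35% and 12.5% of the genes tested. Among them 63 genes were higher and 54 lower by a difference of at least 3. The median over all genes tested was −0.17, so a gene or list near that value moved with the bulk of the genes. Read numbers are not in the table used here, but in genes of 1 exon the product of FPKM and length fell on whole multiples of one step for 54.2% of low values without BMP4 and 54.0% with it (tolerance 0.02 of a step, up to 20 steps), which gives a rough estimate of the depth, about 3176000 reads (or read pairs) without BMP4 and 2862000 with it. At this depth 1 FPKM in a transcript of 1 kb rests on 3.18 reads without BMP4 and 2.86 with it, and 236 of the higher genes were listed at 0 without BMP4 and 449 of the lower genes at 0 with it. For these no fold is given. Of the higher genes 838, and of the lower genes 1168, had at least 20 estimated reads in the library with more.

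**Figure D1:**
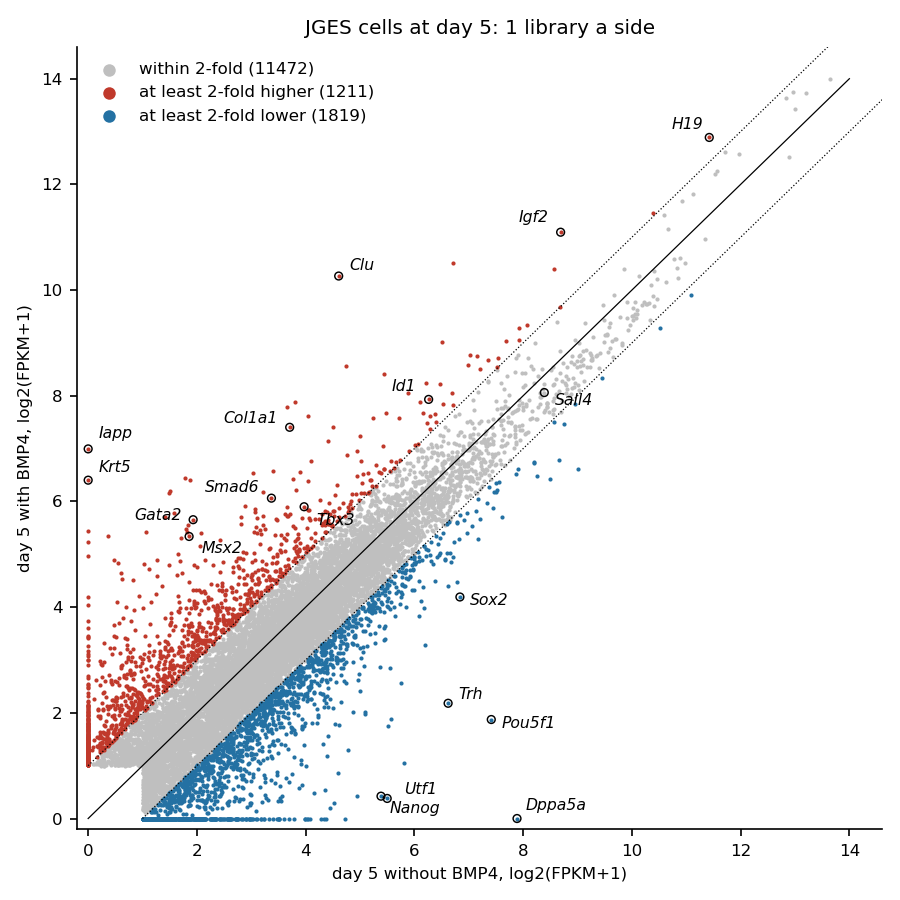
Each point is 1 of 14502 genes, with its level at day 5 without BMP4 on the x axis and with BMP4 on the y axis, both in log2(FPKM+1). Red points (1211) lie above and blue points (1819) below the dotted lines of a 2-fold difference; *Clu*, *Iapp* and *Krt5* stand far above them, and *Pou5f1* and *Dppa5a* far below.

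The delivered factors did not separate the libraries. *Sall4*, a zinc finger factor that recruits the NuRD complex, had 334 FPKM in the BMP4- library and 266 FPKM in the BMP4+ library. *Esrrb*, an orphan nuclear receptor of naive pluripotency, was at 192 and 173 FPKM, and *Jdp2*, an AP-1 family repressor, at 309 and 329 FPKM. These 3 stayed within 2-fold. *Glis1* had 0.0844 FPKM in the BMP4- and 0.843 FPKM in the BMP4+ library, about 0.8 and 7 estimated reads, and at no day from 0 to 7 did it exceed 1.13 FPKM, so its delivery cannot be read from these libraries. Viral transcripts and the cell's own cannot be told apart in the FPKM of a delivered gene.

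Genes that read out the BMP signal were higher with BMP4. Of 14 such genes tested 10 were higher by at least 2-fold and none lower, with a median difference of 1.35. *Msx2*, a homeobox gene, showed the largest difference of the list, from 2.62 to 39.4 FPKM (3.48). *Smad6*, the inhibitory SMAD most specific for BMP receptors, went from 9.34 to 65.8 FPKM (2.69) and *Smad7* from 6.31 to 22.5 FPKM (1.69). *Bambi*, a pseudoreceptor that damps the signal, went from 11.8 to 51.7 FPKM (2.04). *Id1* (chr2:152736251-152737410), an inhibitor of basic helix-loop-helix factors, went from 75.7 to 243 FPKM (1.67), and *Id4* from 8.34 to 23.4 FPKM (1.38). The *Id* family did not move as one, since *Id3* was at 142 and 268 FPKM, a difference of 0.91, and *Id2* at 102 and 91.2 FPKM, a difference of −0.16. At day 1 *Id2* had been at 50.3 and 109 FPKM (1.10), and the level without BMP4 was higher at day 5 than at day 1. At day 7 *Id2* was at 40.1 and 68.4 FPKM (0.75), so it was again higher with BMP4, each day from 1 library a side. *Dlx3* (91.7 to 229 FPKM), *Msx1* (20.2 to 46.7 FPKM), *Hey1* (23.6 to 51.2 FPKM) and *Smad9* (0.775 to 4.13 FPKM) made up the other higher genes, while *Atoh8* (4.12 and 8.13 FPKM) and *Dlx5* (0.44 and 1.63 FPKM) stayed under 2-fold.

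Upstream of these genes, of 22 BMP ligands, receptors, SMADs and antagonists tested, 4 were higher, 1 was lower and 17 lay between, with a median of 0.37 against −0.17 over all genes. The ligand genes *Bmp2* (1.59 to 5.29 FPKM) and *Bmp7* (10.1 to 21.7 FPKM) and the type I receptor gene *Acvrl1* (3.24 to 9.04 FPKM) were higher. *Bmp4* itself was at 24.8 and 29.8 FPKM, and the receptor gene *Bmpr2* at 7.94 and 14.4 FPKM. *Bmp7* had the opposite difference at day 1, from 8.76 to 1.62 FPKM, and at day 3, from 10.3 to 4.38 FPKM.

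Promoter sequences are shown for *Smad6*, *Smad9* and *Id4*, the higher BMP readout genes whose window holds the letters of a SMAD site type. The sequences run from 250 bases before to 50 bases after a start site, 5′ to 3′ on the gene's strand, from RefSeq on GRCm38.p6 (mm10), and 8 of the 14 genes had such a window in the tables used here. Capitals mark the match. In *Smad6* (chr9:64022010-64022309, minus strand) it is the palindrome GTCTAGAC, which starts 4 bases before the start site; in *Smad9* (chr3:54755332-54755631, plus strand) and *Id4* (chr13:48260866-48261165, plus strand) it is GGCGCC, which starts 51 and 148 bases before.
Smad6: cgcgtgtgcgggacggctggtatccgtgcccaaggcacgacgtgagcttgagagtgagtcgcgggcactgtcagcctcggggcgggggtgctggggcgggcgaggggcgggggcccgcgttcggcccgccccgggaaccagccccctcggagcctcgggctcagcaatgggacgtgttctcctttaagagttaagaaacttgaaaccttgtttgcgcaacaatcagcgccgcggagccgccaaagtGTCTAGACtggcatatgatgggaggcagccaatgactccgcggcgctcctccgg
Smad9: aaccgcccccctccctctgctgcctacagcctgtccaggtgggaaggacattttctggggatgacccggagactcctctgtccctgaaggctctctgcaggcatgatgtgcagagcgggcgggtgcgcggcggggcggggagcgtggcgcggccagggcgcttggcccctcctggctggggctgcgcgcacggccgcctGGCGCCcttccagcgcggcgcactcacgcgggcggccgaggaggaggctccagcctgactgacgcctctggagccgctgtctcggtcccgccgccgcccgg
Id4: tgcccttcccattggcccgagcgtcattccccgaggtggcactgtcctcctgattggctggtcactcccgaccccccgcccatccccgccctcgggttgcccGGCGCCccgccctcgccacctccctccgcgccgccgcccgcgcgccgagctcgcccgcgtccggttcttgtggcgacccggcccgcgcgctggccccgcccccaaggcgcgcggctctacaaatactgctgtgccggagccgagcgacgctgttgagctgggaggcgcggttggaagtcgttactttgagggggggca
Searched on both strands, GTCTAGAC was present in 56 of 27025 promoters (0.207%), in 2 of 828 promoters of higher genes and in 3 of 1286 of lower genes. GGCGCC was present in 11.9% of all promoters, in 21.4% of those of genes tested, in 19.7% of those of higher genes and in 20.5% of those of lower genes. Both matches were thus held by similar shares of the higher and the lower genes, and they describe the letters of these windows only. *Id2*, which stayed within 2-fold, held GGCGCC as well.

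The genes of naive pluripotency were lower with BMP4 almost throughout. Of 20 transcription factors tested 16 were lower, with a median of −2.4, and of 25 other genes of pluripotent cells 23 were lower, with a median of −2.49, against −0.17 over all genes. *Pou5f1* (chr17:35506018-35510772, GENCODE on mm10 as for the other genes) went from 169.5 FPKM in the BMP4- library to 2.66 FPKM in the BMP4+ library (−5.54). *Nanog* (chr6:122707489-122714633) was at 40.8 and 0.341 FPKM (−4.96), and *Utf1*, a chromatin factor of embryonic stem cells, at 44.2 and 0.301 FPKM (−5.12). The day 0 library, which is labelled as day 0 of JGES reprogramming and already held *Sall4* at 650.4 FPKM, is no baseline of MEFs without the factors. In it *Pou5f1* was at 0.931 FPKM, and *Nanog* and *Utf1* were listed at 0. *Sox2* was lower by less, from 113 to 17.3 FPKM (−2.64), and stood above its 5.85 FPKM of day 0 in both cultures. *Zfp42* (REX1) went from 23.1 to 0.808 FPKM, *Tfcp2l1* from 13.7 to 0.489 FPKM and *Klf2* from 37.6 to 9.04 FPKM. Other lower factors were *Nr0b1*, *Prdm14*, *Tfap2c*, *Zscan10*, *Nr5a2*, *Etv5*, *Sall1* and *Zfp57*. Of these *Sall1* (−1.04) and *Zfp57* (−1.03) were close to the limit and fell short of it under either scaling of the libraries.

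The exceptions were few and can be named. *Tbx3*, a T-box factor that naive cells share with BMP-responsive mesenchyme, was higher, from 14.7 to 58.7 FPKM (1.93), and it was already at 15.9 and 49.7 FPKM at day 1. *Klf4* (10.1 and 8.26 FPKM), *Klf5* (42.8 and 30.9 FPKM) and *Mycn* (48.1 and 29.1 FPKM) stayed within 2-fold, and all 3 were detected at day 0, at 7.72, 14 and 76.3 FPKM. Among the other pluripotency genes *Alpl*, the alkaline phosphatase used to stain colonies, was at 33.3 and 43.0 FPKM, and *Cdh1* (E-cadherin) at 38.6 and 20.9 FPKM.

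Several pluripotency genes were not detected at all with BMP4. *Dppa5a*, an RNA-binding protein of pluripotent cells, had the largest difference in log2(FPKM+1) of the genes tested and had 236 FPKM (about 463.5 estimated reads) in the BMP4- library and was listed at 0 in the BMP4+ library. *Dppa3* (15.4 FPKM), *Lefty1* (19.2 FPKM), *Gdf3* (5.56 FPKM), *Tcl1* (8.43 FPKM), *Prdm14* (5.58 FPKM) and *Tex19.1* (3.98 FPKM) were also listed at 0 with BMP4. *Dppa4* was at 19.5 and 0.456 FPKM, *Tdgf1*, the NODAL co-receptor, at 29.9 and 0.335 FPKM, and *Fgf4* at 6.96 and 0.231 FPKM. *Tdh*, threonine dehydrogenase, was less far apart, at 93.6 and 29.2 FPKM, as were *Lin28a* at 22.4 and 10.6 FPKM and the glucose transporter gene *Slc2a3* at 125 and 41.6 FPKM. In bulk RNA of cells of several types, fewer cells of a type and less RNA per cell cannot be told apart.

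Promoters of *Zfp42* (chr8:43306960-43307259, minus strand) and *Nanog* (chr6:122707239-122707538, plus strand) are shown as lower factors whose window holds a single match to the site type of an OCT or KLF factor, families that the virus did not deliver. In *Zfp42* the capitals are the OCT octamer ATGCAAAT on the other strand, starting 186 bases before the start site, and in *Nanog* the KLF box GGGCGTGG, starting 10 bases before it.
Zfp42: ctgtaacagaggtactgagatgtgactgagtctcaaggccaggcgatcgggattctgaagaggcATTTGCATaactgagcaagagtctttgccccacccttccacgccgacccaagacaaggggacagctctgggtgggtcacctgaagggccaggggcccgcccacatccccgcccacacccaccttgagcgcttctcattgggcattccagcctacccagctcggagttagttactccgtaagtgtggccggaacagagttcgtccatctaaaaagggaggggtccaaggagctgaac
Nanog: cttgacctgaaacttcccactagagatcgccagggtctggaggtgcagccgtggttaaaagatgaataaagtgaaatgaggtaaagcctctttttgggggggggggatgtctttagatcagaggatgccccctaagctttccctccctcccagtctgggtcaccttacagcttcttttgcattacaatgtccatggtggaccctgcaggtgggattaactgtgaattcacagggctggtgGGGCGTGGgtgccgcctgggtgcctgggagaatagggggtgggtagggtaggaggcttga
ATGCAAAT, on either strand, was present in 31 of 1286 promoters of lower genes (2.41%), in 12 of 828 of higher genes (1.45%) and in 1.44% of those of all genes tested. GGGCGTGG was present in 8.55%, 8.21% and 9.76% of the same sets, and the ESRRB site AAGGTCA in 3.65%, 3.62% and 3.24%.

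Outside these lists, the 15 largest falls among named genes with at least 5 FPKM held *Mylpf*, a muscle myosin light chain, from 54.9 to 1.08 FPKM, *Trh*, thyrotropin-releasing hormone, from 97.4 to 3.53 FPKM, and *Wnt8a* from 22.0 to 0.230 FPKM. *Zfp296* (19.8 FPKM), *Rbmxl2* (18.4 FPKM), *Trap1a* (15.2 FPKM) and the long noncoding *Platr10* (15 FPKM) were listed at 0 with BMP4. With *Dppa5a*, *Pou5f1*, *Utf1*, *Nanog*, *Tdgf1*, *Lefty1*, *Lefty2* and *Dppa3* these make up the 15. *Trh* was already apart at day 3, with 116 and 0.516 FPKM.

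Of 13 genes of the NODAL and activin pathway 7 were lower and 2 higher, with a median of −1.50 (−0.84 over all 15 genes with no filter on low values). *Nodal* was at 6.62 and 0.167 FPKM, its inhibitors *Lefty1* and *Lefty2* at 19.2 and 20.7 FPKM without BMP4 against 0 and 0.141 FPKM with it, and *Foxh1*, the nuclear partner of SMAD2 and SMAD3, at 5.4 and 1.0 FPKM. The 2 higher members were *Smad3* (9.9 to 22.0 FPKM) and the convertase gene *Furin* (12.7 to 28.2 FPKM). Of 9 genes of the primed epiblast 5 were lower, with a median of −1.21, but of the 5 with at least 20 estimated reads 2 were lower, with a median of −0.23. Among the lower were *T* (brachyury), with 10.4 FPKM in the BMP4- library and listed at 0 in the other, and *Fgf8*, at 5.04 and 0.254 FPKM. Of 18 FGF and ERK genes 5 were lower and 3 higher: the ERK target *Etv4* was at 43.2 and 9.55 FPKM, and *Fgf18* at 6.52 and 31.6 FPKM.

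Of 28 HOX and CDX genes 11 were lower and 2 higher, with a median of −0.73, where 12.5% of all genes were lower and 8.35% higher. The caudal genes *Cdx1* (23.4 and 2.4 FPKM), *Cdx2* (6.90 FPKM, then listed at 0) and *Cdx4* (5.13 FPKM, then listed at 0), which position the posterior body axis, were all lower. *Hoxb13* was at 10.5 and 0.532 FPKM. The higher members were *Hoxa13*, from 0.481 to 5.34 FPKM, and *Hoxd10*, from 1.7 to 4.6 FPKM, both posterior genes that act in the limb.

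PrE genes did not yet stand higher with BMP4 at day 5. Of 16 tested 1 was higher, 1 lower and 14 lay between, with a median of −0.24, close to the −0.17 of all genes. *Gata4* had 3.23 FPKM in the BMP4- and 1.70 FPKM in the BMP4+ library, *Gata6* at 7.80 and 4.22 FPKM, and *Sox17* at 1.87 and 1.36 FPKM. *Cubn*, an endocytic receptor of the visceral endoderm, was at 4.84 and 3.39 FPKM, and its partner *Amn* at 14.4 and 11.5 FPKM. *Foxa2*, an endoderm pioneer factor, was the lower gene, at 9.83 and 0.590 FPKM, and *Pdgfra* the higher, at 13.6 and 30.2 FPKM. *Pdgfra* is also on the list of fibroblast matrix and surface genes and was at 30.3 FPKM at day 0. *Gata4* and *Cubn* were above their day 3 levels in both cultures, which had been 0.559 and 0.481 FPKM for *Gata4* and 0.610 and 0.788 FPKM for *Cubn* without and with BMP4. Of 14 genes of the parietal endoderm, most of them basement membrane genes, 4 were higher and 1 lower: *Sparc* (90.4 to 519 FPKM), *Krt19* (36.7 to 190.5 FPKM), *Nid1* (20.3 to 49.0 FPKM) and *Hspg2* (31.5 to 70.9 FPKM) were the higher ones, of which *Krt19* is a keratin. Fibroblasts also express *Sparc*, *Nid1* and *Hspg2*, which were at 1157, 101 and 207 FPKM at day 0. Of 9 serum protein genes of the visceral endoderm 2 were higher, *Trf* (transferrin, 0.810 and 10.8 FPKM) and *Spink1* (0.746 and 3.31 FPKM), and 1 was lower, *Ttpa* (2.53 and 0.416 FPKM). *Ttr*, at 5.16 and 9.16 FPKM, stayed within 2-fold.

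The largest rises were not genes of the BMP readout. *Iapp*, the amylin hormone, was listed at 0 in the BMP4- library and had 127 FPKM in the BMP4+ library, and *Krt5* (chr15:101707070-101712898), a keratin of basal epithelium, was listed at 0 and at 83.6 FPKM. *Clu* (clusterin, chr14:65968483-65981547), a secreted chaperone, went from 23.4 to 1230.2 FPKM (5.66). *Pyy*, a gut peptide, went from 2.68 to 83.8 FPKM (4.53). *Gpr165* (42.2 FPKM), *Tuba8* (36.6 FPKM), *S100a4* (30.1 FPKM) and *S100a9* (17.3 FPKM) were also listed at 0 without BMP4, the last with about 25.8 estimated reads. *Krt71* went from 0.290 to 39.5 FPKM, *Dkk1*, a secreted WNT inhibitor, from 1.82 to 72.5 FPKM, *Sp6*, an epithelial zinc finger factor, from 2.44 to 85.7 FPKM, and *Wnt4* from 1.98 to 54.1 FPKM. *Entpd3* (1.09 to 41.8 FPKM), *Fbxo2* (0.471 to 27.7 FPKM) and *Scara3* (1.67 to 51.0 FPKM) complete the 15. Of 10 peptide hormone genes 4, *Iapp* among them, were higher and 1 lower, with *Chga* at 2.31 and 24.1 FPKM, *Ppy* at 0.656 and 7.28 FPKM and *Cck* in the other direction at 15.3 and 4.17 FPKM. Of 11 keratinocyte genes 5, *Krt5* among them, were higher and 2 lower: *Lor* was at 1.59 and 7.46 FPKM, *Krt15* at 1.65 and 5.48 FPKM, and *Sprr2a3*, which is nearly identical to its neighbour copies and so uncertain, at 7.02 FPKM and listed at 0.

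Genes of the starting fibroblasts were higher with BMP4. Of 22 matrix and surface genes 16 were higher and 1 lower, with a median of 1.45, and their summed level went from 548.5 to 1755 FPKM. *Col1a1*, the main fibrillar collagen chain, was at 12.1 and 168 FPKM (3.70), *Postn* (periostin) at 11.6 and 219 FPKM (4.13), *Thy1* at 1.81 and 26.8 FPKM (3.30), *Fn1* at 141 and 429.9 FPKM (1.60) and *Vim* at 243 and 530.4 FPKM (1.13). At day 0 *Col1a1* had been at 524 FPKM and *Thy1* at 73.5 FPKM, so the levels with BMP4 were still under those of day 0, whereas *Postn* was above its 56.7 FPKM of day 0. Of 12 contractile genes 9 were higher and none lower, with a median of 1.22, but all of those named were far under day 0 in both cultures: *Tagln* was at 1228 FPKM at day 0 and at 8.34 and 46.0 FPKM at day 5, and *Acta2* at 983 FPKM and then 3.22 and 14.4 FPKM. Of 17 mesenchymal transcription factors 3 were higher as deposited and 6 under either scaling of the libraries, among them *Prrx2* (3.21 to 41.3 FPKM) and *Six2* (7.66 to 50.2 FPKM), and *Meox1* was lower (46.1 to 6.17 FPKM).

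Early response and immune genes were higher in part. Of 13 AP-1 and immediate early genes 6 were higher and 1 lower, with *Junb* at 32.2 and 90.6 FPKM and *Jun* at 18.7 and 53.1 FPKM. Of 12 cytokine, chemokine and acute response genes 8 were higher and none lower, with a median of 1.34, but 7 of the 12 were under 5 FPKM in both libraries, and of the other 5 genes 3 were higher. *Mmp9*, a matrix protease, was at 7.22 and 92.1 FPKM, and *Slpi*, a protease inhibitor, was listed at 0 and at 11.2 FPKM. Of 13 interferon-stimulated genes 6 were higher and none lower, with a median of 0.67. At 5 FPKM or more 4 of 7 were higher, with a median of 1.39. With at least 20 estimated reads 4 of 9 were higher, with a median of 0.51. Macrophage genes gave no matching difference, with none of 4 tested higher, 1 lower and a summed level over 12 genes of 8.3 FPKM without and 5.6 FPKM with BMP4.

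WNT ligand and target genes differed. Of 19 tested 7 were higher and 3 lower, with a median of 0.53. The ligand genes *Wnt4*, *Wnt6* (51.7 to 191 FPKM), *Wnt10a* (41.7 to 132 FPKM), *Wnt3*, *Wnt5a* and *Wnt11* and the inhibitor gene *Dkk1* were the higher members. The 3 lower were target genes: *Sp5* was at 46.7 and 2.67 FPKM, and *Cdx1* and *T* are given above. Other WNT targets did not follow, with *Axin2* at 19.2 and 28.2 FPKM and *Tcf7* at 43.8 and 37.0 FPKM, in a medium that held the GSK3 inhibitor CHIR99021 on both sides.

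Trophoblast genes moved in both directions. *Gata2* went from 2.81 to 49.4 FPKM (3.72), *Gata3* from 2.87 to 15.9 FPKM (2.13) and *Hand1* from 0.332 to 5.15 FPKM (2.21). *Cdx2* and *Tfap2c* (9.24 and 0.659 FPKM) were lower, as was *Tead4* (3.2 and 0.5 FPKM), so of 9 genes tested 4 were higher, with *Peg10* given below, and 3 lower. Imprinted genes, which are expressed from 1 parental allele and often promote or restrain growth, were higher in 7 of 18 cases and lower in 1, *Snrpn* (25.1 and 9.98 FPKM). The neighbours *H19* (chr7:142575529-142578143) and *Igf2* (chr7:142650766-142666816) were at 2745 and 7581 FPKM and at 412 and 2187 FPKM. *Peg10* was at 266 and 647 FPKM, and *Cdkn1c*, a cyclin-dependent kinase inhibitor, at 407 and 817 FPKM.

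**Figure D2:**
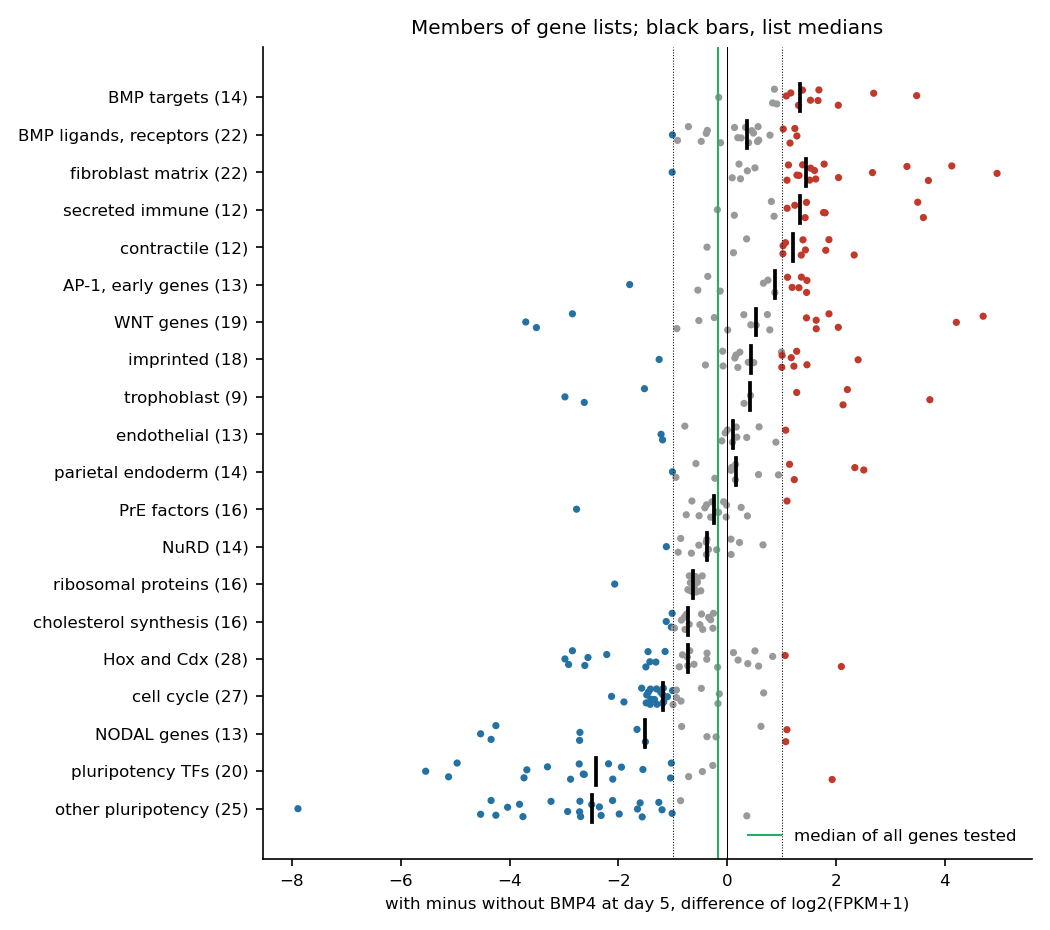
Each point is the day 5 difference of 1 gene, with minus without BMP4 in log2(FPKM+1), in rows by list with the number tested in brackets; black bars are list medians, dotted lines mark 2-fold and the green line is the median of all genes, −0.17. BMP readout and fibroblast genes lie mostly to the right (medians 1.35 and 1.45) and the pluripotency lists to the left (medians −2.4 and −2.49).

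Cell cycle genes were mostly lower with BMP4, while ribosomal protein, cholesterol synthesis and NuRD genes mostly stayed within 2-fold. Of 27 genes of DNA replication and mitosis 19 were lower and none higher, with a median of −1.18. *Bub1* was at 17.4 and 3.22 FPKM (−2.12), *Ccnb1*, the mitotic cyclin, at 82.5 and 21.4 FPKM (−1.90), *Mcm7*, a helicase subunit, at 95.9 and 31.6 FPKM (−1.57) and *Top2a* at 104 and 36.6 FPKM (−1.49). *Ccnd1* was the 1 gene above 0, at 83.3 and 133 FPKM. All 16 ribosomal protein genes and all 16 cholesterol synthesis genes were below 0, with medians of −0.62 and −0.72, although 1 and 3 of them passed 2-fold. After scaling by the median ratio or by the upper quartile none of the cholesterol genes passed it (medians −0.58 and −0.60), *Lss* (lanosterol synthase, 26.7 and 11.8 FPKM as deposited) included. Of 9 DNA methylation enzymes and cofactors 3 were lower: *Uhrf1* was at 79.8 and 27.1 FPKM, *Tet1* at 8.19 and 1.43 FPKM and *Dnmt3l* at 5.42 and 0.262 FPKM. The NuRD subunits, partners of SALL4, differed less, with 1 of 14 lower (*Mta1*, 73.6 and 33.4 FPKM) and a median of −0.38, and none lower under either scaling (medians −0.24 and −0.25). Among 14 genes that every cell uses the median was −0.28. Scaled to the same median ratio, the medians of the ribosomal and these reference genes were −0.48 and −0.14. RNAs of the mitochondrial genome, looked at after their values were seen, went the other way: all 13 were above 0, with a median of 0.69, and they held 14.1% of the summed FPKM without BMP4 and 21.8% with it. How far this share moved the FPKM of the other genes was not tested beyond the scalings given in the closing section.

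Markers of other cell types that the mixture could hold gave small or divided counts. Over all genes tested 8.35% were higher and 12.5% lower, with a median of −0.17, and the endothelial counts lay near these shares. The list medians were 0.10 (endothelial), −0.69 (blood), 0.38 (skeletal), −0.37 (epithelial) and 0.38 (neural). Of 13 endothelial genes 1 was higher (*Sox18*, 21.4 and 46.2 FPKM) and 2 were lower, among them *Pecam1* (9.87 and 3.68 FPKM), with a summed level of 147.0 and 153.6 FPKM over 15 genes. Of 8 blood genes 1 was higher (*Runx1*, 0.811 and 6.77 FPKM) and 2 were lower, among them *Lmo2* (37.1 and 14.5 FPKM). Of 13 skeletal genes 4 were higher, with *Ibsp*, a bone matrix protein, at 0.322 and 8.4 FPKM and *Sox9* at 4.02 and 14.5 FPKM, and 1 was lower, the WNT and BMP antagonist gene *Sost* (31.0 and 4.31 FPKM). Of 23 epithelial genes 5 were higher and 4 lower: *Krt8* was at 9.07 and 33.3 FPKM, whereas *Epcam* was at 25.2 and 5.09 FPKM and *Elf3* at 16.2 and 2.50 FPKM. Of 8 neural genes 4 were higher and 3 lower, with *Nes* at 7.30 and 42.2 FPKM and *Stmn2* at 19 and 1.65 FPKM.

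The day 5 differences were compared with those of days 1, 3 and 7, which came from other libraries. At day 1 3.15% of 13190 genes were higher and 5.03% lower, at day 3 6.22% and 8.37% of 14009, and at day 7 9.79% and 13.3% of 14944. Of the 1211 genes higher at day 5, 127 were higher at day 1, 378 at day 3 and 662 at day 7, which is 10.5%, 31.2% and 54.7% of them and 30.6%, 43.4% and 45.2% of the genes higher at each of those days. Of the 1819 lower genes, 139, 444 and 826 were lower at days 1, 3 and 7, or 7.64%, 24.4% and 45.4% of them and 21%, 37.9% and 41.7% of the genes lower at those days. Opposite calls were fewer, with 48, 40 and 25 of the higher genes and 46, 33 and 38 of the lower genes at days 1, 3 and 7. Across genes tested at both days the differences had a Pearson r of 0.16 with day 1, 0.54 with day 3 and 0.72 with day 7 (12574, 13258 and 13701 genes, which are not independent replicates).

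The lists reached their day 5 differences at different times. The BMP readout genes were apart from day 1, with medians of 1.53, 1.22, 1.35 and 1.27 at days 1, 3, 5 and 7. The medians of the pluripotency factors were −0.09, −1.47, −2.4 and −2.50, and those of the fibroblast matrix genes −0.08, 1.03, 1.45 and 1.76. The cell cycle genes went from 0.09 at day 1 to −0.86 at day 3 and −1.18 at day 5. The PrE genes were at −0.03, −0.13 and −0.24 up to day 5 and at 1.09 at day 7. *Cited1* made the widest step of the list, at 7.67 and 5.06 FPKM at day 5 and 5.52 and 74.8 FPKM at day 7, followed by *Pitx1*, at 2.13 and 1.71 FPKM and then 2.72 and 35.3 FPKM.

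**Figure D3:**
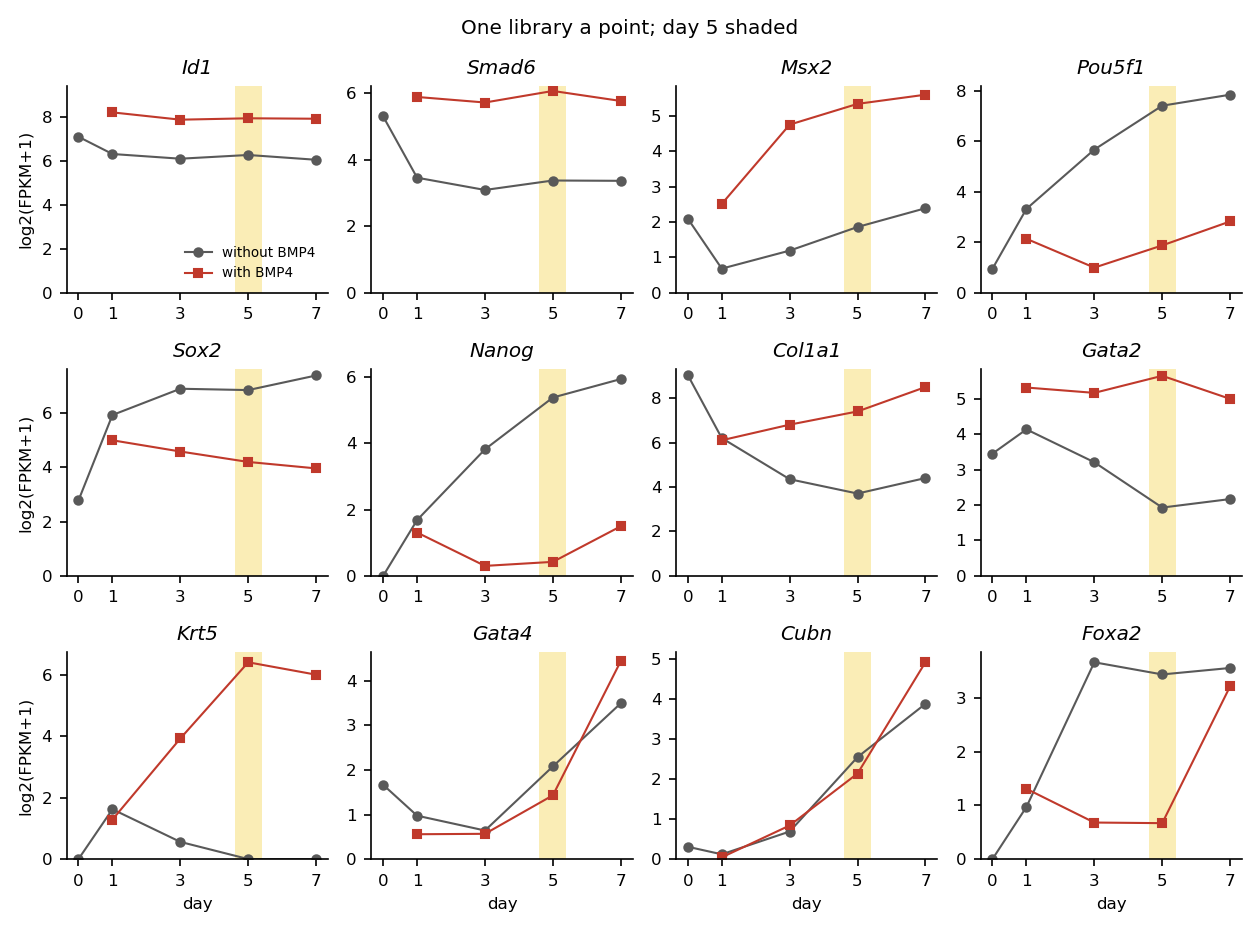
Level of 12 genes in log2(FPKM+1) against day, without BMP4 (grey, days 0 to 7) and with BMP4 (red, days 1 to 7), 1 library a point, with day 5 shaded and a y axis of its own for each gene. *Id1*, *Smad6* and *Gata2* are apart from day 1, the pluripotency genes part further at day 3, and *Gata4* and *Cubn* cross between day 5 and day 7.

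The same genes were set against day 0, the start of the series after infection. Of the genes lower at day 5, 48% were at least 2-fold above day 0 at day 7 without BMP4 and 15.4% with it, against 17.9% and 14.4% of all genes tested. Of the genes higher at day 5, 30.4% were at least 2-fold below day 0 at day 7 without BMP4 and 11.4% with it, against 8.34% and 7.08% of all genes, and 38.9% were 2-fold above day 0 with BMP4 against 13.8% without.

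Single cells of day 7, 1 sample with BMP4 (7125 intermediate state, 2372 ParE, 1453 endothelial and 385 placenta-like cells) and 1 without (6211 intermediate state, 1825 pluripotent, 507 endothelial and 142 ParE cells), show where the day 5 genes were read 2 days later. Levels are UMIs in CPM, a count scaled to the summed UMIs of the type, over the cells of a type named by the authors, with exact Poisson intervals (95%) that cover counting error only, and 2 cell barcodes were shared by the samples. The label ParE is not spelled out in the deposited table. With BMP4 the share of its cells was near the approximate share that the paper gives for PrE-like cells. Without BMP4 it was near the paper's printed percentage only if that value is read as a fraction. The ParE cells held *Gata4*, *Cubn* and *Dab2* and are called by the label here. How doublets were treated is not given in the sources used here, and none were removed for these sums. Among 1429 lower genes with at least 20 UMIs, 520 (36.4%) had their highest level in the pluripotent cells of the sample without BMP4, against 10.4% of all 12627 such genes. A further 183 (12.8%, against 7.25% of all) had it in the intermediate state cells without BMP4. In the sample with BMP4, 238 (16.7%, against 16.7%) had it in the ParE, 176 (12.3%, against 24.2%) in the placenta-like, 113 (7.91%, against 10%) in the endothelial and 47 (3.29%, against 21.4%) in the intermediate state cells. Among 992 higher genes 666 (67.1%) had it in the intermediate state cells with BMP4, against 21.4%. Over whole samples 69% of the higher genes were at least 2-fold higher with BMP4 in the cells (23.1% of all) and 25.3% of the lower genes at least 2-fold lower (4.7% of all). The median UMIs per cell were 19594 in the intermediate state cells with BMP4 and 15444 in the pluripotent cells without it.

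*Pou5f1* was at 899 CPM (889 to 910) in the pluripotent cells and at 3.14 CPM (2.93 to 3.36) over all cells with BMP4. *Dppa5a* was at 6310 CPM (6280 to 6330) and *Mylpf* at 663 CPM (654 to 673) in the pluripotent cells, where *Mylpf* stood above the 32.9 CPM (31.7 to 34.2) of the intermediate state cells of the same sample. Not every lower gene belonged there: *Meox1* was at 42.1 CPM (40.8 to 43.6) in the intermediate state cells without BMP4 and at 1.43 CPM (1.26 to 1.63) in those with it. Among the higher genes *Clu* was at 2990 CPM (2980 to 3000) and *Iapp* at 1700 CPM (1690 to 1710) in the intermediate state cells with BMP4, against 415 CPM (410 to 420) and 177 CPM (174 to 180) in the ParE cells beside them. *Krt5* was at 54.4 CPM (53.2 to 55.5) in the same intermediate state cells, and over all cells without BMP4 it had 2 UMIs in all. *Gata2* was highest in the 385 placenta-like cells, at 247 CPM (238 to 256). Free RNA of other cells adds to such levels, and its part was not tested.

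**Figure D4:**
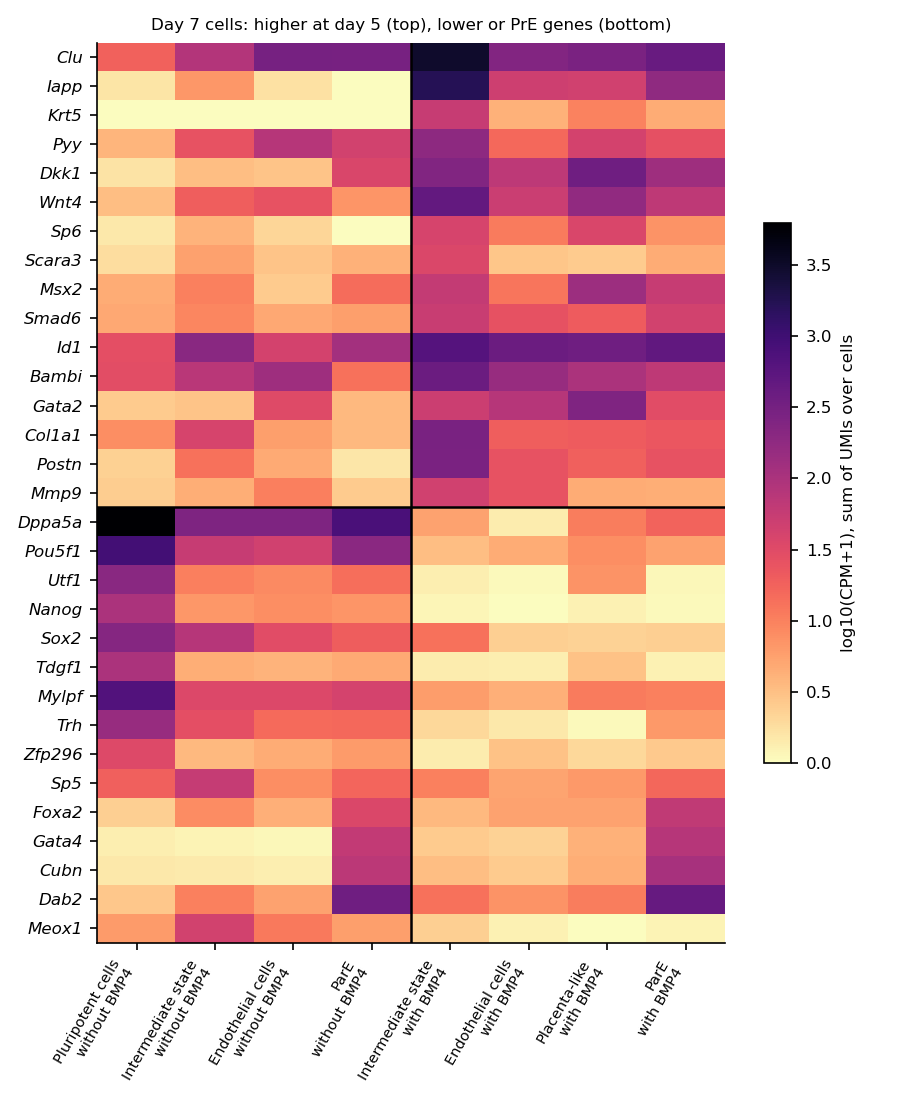
Level of 31 genes named at day 5 in the 8 groups of day 7 cells, as log10(CPM+1) from summed UMIs, with 1 sample with and 1 without BMP4. The lower genes *Pou5f1*, *Dppa5a* and *Mylpf* peak in the pluripotent cells without BMP4 (899, 6310 and 663 CPM), and *Clu* and *Iapp* in the intermediate state cells with BMP4 (2990 and 1700 CPM).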

How the data were processed

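Bulk RNA-seq was deposited by the authors as 1 FPKM table per gene, made with Trim Galore 0.6.4, HISAT2 2.2.1 and StringTie 2.2.1 per the submitters' processing notes. The annotation used for it is not given in the sources used here. Single-cell UMI counts and the cell type of each cell were deposited by the authors as well. Day 5 with BMP4 was compared with day 5 without, with 1 library each, as a difference of log2(FPKM+1). The pseudocount was 1, the minimum 1 FPKM in either library and the call a difference of at least 1. Gene positions and lengths came from GENCODE vM21 and promoters from RefSeq, with 1 chromosome not used here. Genes named were the 15 largest rises and 15 largest falls with at least 5 FPKM (predicted genes and pseudogenes left out), all measured members of the BMP readout, delivered, pluripotency and PrE lists, and up to 4 members with the largest differences of each other list. Genes given beyond this rule were chosen after their values were seen. Members and lists were chosen with earlier results of these data known. Of the deposited columns, 8 of the FPKM table were not used here. Reads per library were estimated from the step between values, with genes of 1 exon. Whether replicate cultures were pooled is not given, and strand was not stated, so overlapping and antisense genes may share reads. UMI counts were summed per sample and cell type. No fit across genes was made. Calculations used Python 3.11.15, pandas 2.3.3, NumPy 2.4.6 and SciPy 1.17.1, and scripts were tested on simulated data.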

Additional observations from a re-analysis of the deposited data

Results flagged for a closer look

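The median of the PrE genes was below 0 at day 5 and above 0 at day 7. Over 16 genes it was −0.24 at day 5, close to the −0.17 of all genes, and 1.09 for the same genes at day 7 (log2 scale, with minus without BMP4), each from 1 library a side, and the difference between the days was not tested. Epithelial genes had a median over 23 genes of −0.37 at day 5 and 0.23 at day 7, not tested either. The day 5 median of the epithelial list was 0.13 when only genes with at least 5 FPKM were kept. It was −0.10 over the 18 genes with at least 20 estimated reads, so its sign depends on the filter. *Cck*, cholecystokinin, was lower with BMP4 at day 5 (15.3 and 4.17 FPKM, −1.66) and higher at day 7 (3.41 and 15.7 FPKM, 1.92), on about 38.9 and 9.5 estimated reads at day 5, and this difference was not tested.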

How the results depend on the processing

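With 1 library a side, no replicate could be left out and no count model applied. No paired analysis was possible because the groups compared hold 1 library each. With at least 5 FPKM in either library 742 genes were higher and 1021 lower, and with at least 20 estimated reads, a limit chosen after seeing the data, 838 were higher and 1168 lower. Scaling the libraries to the same median ratio (shift −0.15) gave 1497 higher and 1543 lower, and scaling to the same upper quartile (shift −0.13) gave 1455 and 1561. The higher genes were 40% of those called as deposited and 49.2% and 48.2% under these scalings. A pseudocount of 0.1 gave 1633 higher and 2539 lower, and moved the medians of the BMP readout genes to 1.58, the pluripotency factors to −3.20, the other pluripotency genes to −4.17, the NODAL genes to −1.92 and the HOX genes to −0.96. At 5 FPKM or more the pluripotency factors had a median of −2.63, the other pluripotency genes −2.69 and the HOX genes −1.14. The inflammation median was 2.98 with the pseudocount of 0.1, and under both scalings 17 of the 27 cell cycle genes were lower in place of 19 and 14 of the 20 pluripotency factors in place of 16. With no filter on low values the NODAL median was −0.84. None of these turned the direction of the values given in this paragraph, and the cause of each shift was not tested. Medians of other lists did turn. The epithelial median went from −0.37 to 0.13 at 5 FPKM or more, and that of fat cell genes from −0.66 to 0.02 with no filter. Scaled to the same median ratio, cell cycle inhibitors and p53 targets went from −0.02 to 0.12. Heat shock and unfolded protein genes went from −0.08 to 0.06. At 5 FPKM no macrophage gene was left. Low genes rest on few reads, and a value listed at 0 was not detectable at this depth.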

Other observations

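2 genes with opposite 2-fold differences at days 5 and 7 are given here, chosen after their values were seen. *Etv2*, an ETS factor that specifies endothelial and blood cells, went from 2.16 to 5.51 FPKM with BMP4 at day 5, and at 6.01 and 1.92 FPKM at day 7. *Ramp2*, a receptor subunit, was at 11.9 and 4.81 FPKM at day 5 and at 10.9 and 25.8 FPKM at day 7. *Etv2* had about 7.2 and 16.5 estimated reads at day 5, and the change between days was not tested.

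Long noncoding genes differed more often than protein-coding genes at day 5. Of 962 tested, 15% were higher and 21.7% lower, against 7.79% and 11.3% of protein-coding genes. The classes were not matched for level or reads. A gene of 1 FPKM and 1 kb rests on only 3.18 reads without BMP4 and 2.86 with it. Whether low levels account for the larger shares was not tested. Genes of the X chromosome were higher in 6.08% and lower in 15.5% of 477 cases.

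The bulk libraries and the single cells of day 7 gave different values for the cell cycle genes. For the 27 cell cycle genes the median difference, with minus without BMP4, was −1.15 in the bulk libraries of day 7 and 0.18 in the cells summed over each sample, where the median over all 12627 genes was −0.10 and 0.45. For the 14 NuRD genes it was −0.26 and 0.58, and for the 16 cholesterol genes −0.15 and 0.50. Both lists lay near the medians of all genes on each side, so most of their change of sign was shared by all genes. The 16 ribosomal protein genes had medians of −0.67 in the bulk libraries and −0.72 in the cells. Against the medians of all genes, they thus lay further below in the cells than in the bulk libraries.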
